A study of Mus musculus with 6 samples.

Results

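Imprinted genes that govern growth were followed across primary osteosarcomas of *Nf2*-mutant mice. The 10 members were chosen by gene identity and not by a measured value, though with earlier results of these data known: *Igf2*, *H19*, *Igf2r*, *Dlk1*, *Meg3*, *Peg3*, *Mest*, *Plagl1*, *Cdkn1c* and *Grb10*. All 10 were found among the 39179 gene identifiers of the count table, of which 37607 had a symbol. RNA of 6 osteosarcoma samples, called tumors here, was sequenced, each labelled with its own number. No244, No316 and No368 were *Cd44*+/+, and No203, No279 and No364 were *Cd44*-/-, lacking the hyaluronan receptor CD44. Mice of both genotypes carried the same mutant allele of the tumor suppressor gene *Nf2* over a wild-type allele (*Nf2* delta2/+) and were crosses of C57BL/6, 129/Sv and FVB. The tumors arose in the animals, no treatment is named, and age and sex are not given in the labels. The labels call the samples osteosarcoma, while their extraction text speaks of cell lines. The study's methods describe tumor tissue, so each sample holds tumor cells together with whatever host cells lay in the piece taken. The study sequenced these tumors to ask which processes differ with CD44, and the same comparison is made here for the imprinted genes.

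An imprinted gene is transcribed mainly from 1 parental copy, because DNA methylation set in the egg or the sperm marks the copies differently. Many of these genes act on fetal growth in opposing directions. They are transcribed strongly in fetal muscle, liver, cartilage and placenta and are mostly turned down after birth. *Igf2* encodes a growth factor and is transcribed from the paternal copy. *H19*, its neighbour, is a maternally transcribed noncoding RNA that shares enhancers with *Igf2* and is the precursor of the microRNA miR-675. The protein of *Igf2r*, transcribed in mice from the maternal copy, binds IGF2 at the cell surface and carries it to the lysosome.

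Reference sequences of GRCm38.p6 from RefSeq are shown for 4 places to which the counts below refer. Promoter windows of 300 bases (250 before and 50 after an annotated start) were found for 8 of the 10 members, in 15 windows, and *H19* and *Cdkn1c* had none. The window of *Igf2r* lies on the minus strand at chr17:12769657-12769956 and is shown because this was the member whose genotypes did not overlap. The window of *Mest* lies on the plus strand at chr6:30737800-30738099 and is shown for the gene with the second largest genotype difference. Among the windows of *Mest* it was picked for its CG count, which no other of them exceeded. CG dinucleotides, where imprinting marks can be set, are in capitals in both. The third sequence is a window of *Igf2* at chr7:142661222-142661521 on the minus strand, with capitals on CCTGCG. It was picked because it alone among the *Igf2* windows holds CCTGCG. This is a response element through which the cleaved intracellular part of CD44 is thought to act. The fourth is the hairpin of *Mir675* at chr7:142577064-142577147 on the minus strand, inside *H19*, with both mature microRNA arms in capitals.
Igf2r promoter: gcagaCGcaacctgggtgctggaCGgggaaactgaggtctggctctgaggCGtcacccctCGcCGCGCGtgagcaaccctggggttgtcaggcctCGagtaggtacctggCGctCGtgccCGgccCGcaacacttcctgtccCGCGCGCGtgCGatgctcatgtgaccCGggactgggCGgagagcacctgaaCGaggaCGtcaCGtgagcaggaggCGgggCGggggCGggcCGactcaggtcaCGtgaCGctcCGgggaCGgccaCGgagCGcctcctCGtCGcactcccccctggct
Mest promoter: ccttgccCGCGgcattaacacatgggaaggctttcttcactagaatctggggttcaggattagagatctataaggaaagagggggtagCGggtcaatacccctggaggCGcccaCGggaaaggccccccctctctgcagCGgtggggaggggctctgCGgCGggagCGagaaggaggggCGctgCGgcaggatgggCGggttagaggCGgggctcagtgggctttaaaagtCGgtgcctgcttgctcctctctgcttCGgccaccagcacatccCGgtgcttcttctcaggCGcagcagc
Igf2 promoter: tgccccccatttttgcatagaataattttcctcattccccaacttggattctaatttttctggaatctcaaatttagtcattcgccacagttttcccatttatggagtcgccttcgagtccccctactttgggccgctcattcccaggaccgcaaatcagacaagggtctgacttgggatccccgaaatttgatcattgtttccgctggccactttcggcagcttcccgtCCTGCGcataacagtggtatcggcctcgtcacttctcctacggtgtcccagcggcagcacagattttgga
Mir675 hairpin: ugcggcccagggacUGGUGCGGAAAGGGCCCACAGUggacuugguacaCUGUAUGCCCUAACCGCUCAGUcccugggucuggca

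The *Igf2r* window held 34 CG dinucleotides and the *Mest* window 17, against a median of 7 over all 32851 windows of the promoter table. These counts placed the *Igf2r* window at percentile 92.3 and the *Mest* window at percentile 68.6. The other windows of *Mest* held 8 and 17 CG dinucleotides (percentiles 51.4 and 68.6). CCTGCG, searched on both strands, was found in 3 of the 15 member windows, those of *Igf2*, *Dlk1* and *Grb10*, and in 17.3% of all windows. TGACTCA or TGAGTCA, the other element tied to CD44, was in none of the 15 windows and in 5.2% of all windows. GGGGGCCCC, the core of the sequence that PLAGL1 binds, was in 1 member window, that of *Peg3*, and in 0.405% of all windows. These are matches of letters, and binding was not measured.

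Total counts lay between 18076388 and 26954142 per tumor, and 3 counts, the level below which a gene was not taken as detected, corresponded to between 0.0990 and 0.252 CPM (counts scaled to library size with TMM factors). Mitochondrial transcripts took 55.2% of the counts in No244 and 5.94% to 12.5% elsewhere. No316 and No368 were nearly proportional, with 87.2% of 16671 genes inside the 95% range of sampling noise, against 15.7% to 24.1% in the other pairs. They were counted as 1 sample, the mean of both, in every mean ± SD, which leaves n = 2 for *Cd44*+/+ and n = 3 for *Cd44*-/-. Whether they are separate tumors could not be settled. *Cd44* stood at 137.3, 243.6 and 240.3 CPM in the *Cd44*+/+ tumors and at 19.2, 15.7 and 61.8 CPM in the *Cd44*-/- tumors, so reads still fell on the gene in each of the latter (477 to 1180 counts). Skeletal muscle markers summed to 20714 CPM in No244 and to at most 783 CPM elsewhere, and all 9 were highest in No244. Hepatocyte markers summed to 142683 CPM in No364 and to at most 175 CPM elsewhere, and all 15 were highest in No364. The 10 osteoblast markers summed to between 3042 CPM (No364) and 39371 CPM (No203). *Ibsp* stood at 3.27 and 2.25 CPM and *Bglap* at 4.79 and 6.80 CPM in No279 and No364. Other markers of that list kept the sum of No279 at 13543 CPM. *Xist* stood at 859 to 1241 CPM in 4 tumors and under 1 CPM in No279 and No364, both *Cd44*-/-, so its level was not balanced between the genotypes. The labels do not give sex, which *Xist* alone does not settle. In whole tumor pieces, fewer cells of a type and less RNA per cell cannot be told apart. What part these differences between the samples have in any result that follows was not tested.

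**Figure D1:**
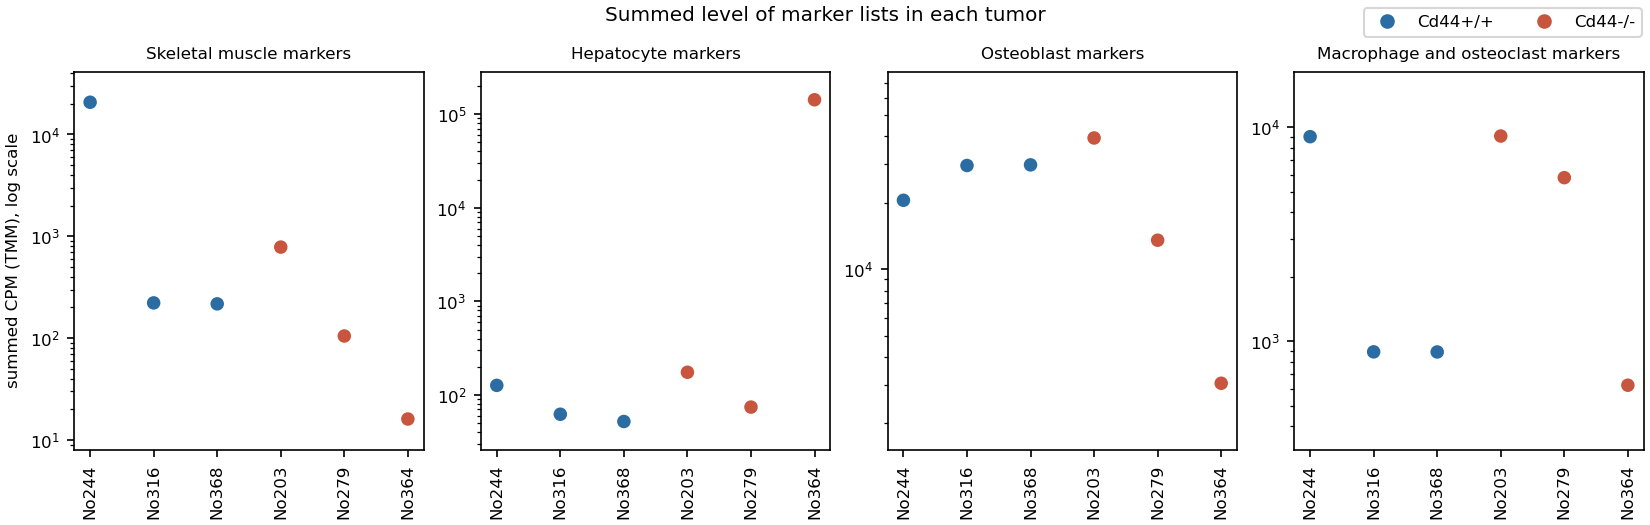
Summed level of 4 marker lists in each of the 6 tumors (vertical axis, summed TMM CPM on a log scale, 1 point per tumor, blue for *Cd44*+/+ and red for *Cd44*-/-). Skeletal muscle markers stand out in No244 at 20714 CPM and hepatocyte markers in No364 at 142683 CPM.

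The imprinted growth genes varied widely from tumor to tumor. Over the 5 independent samples, the distance between the highest and the lowest log2 CPM had a median of 4.58 in the 9 members that passed the low-count filter, against 2.03 over all 16839 genes tested. It lay above the median of all genes for 7 members and above the 90th percentile for 3, *Meg3* (6.88), *Plagl1* (6.28) and *Igf2* (5.20). *Igf2r* (1.57) and *Grb10* (1.83) had the narrowest ranges. The tumor with the highest level changed from member to member. No203 held the highest level of 4 members (*Mest*, *Plagl1*, *Cdkn1c* and *Grb10*), No244 of 3 (*Igf2*, *H19* and *Peg3*), No279 of 2 (*Igf2r* and *Dlk1*), No364 of 1 (*Meg3*), and No316 and No368 of 0. Over all genes tested, No203 held the highest level of 14.2%, No244 of 22.9%, No279 of 21.5%, No364 of 25%, No316 of 8.59% and No368 of 7.81%.

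Compared per kilobase of exon, *H19* was the most abundant member at a mean of 41.7 CPM per kb over the 5 samples, percentile 91.5 of the genes tested. *Mest* followed at 15.8 CPM per kb, *Igf2r* at 9.19 and *Plagl1* at 6.59, all above the median gene (4.64 CPM per kb). *Igf2* (3.54), *Meg3* (2.18), *Grb10* (2.01) and *Cdkn1c* (1.59 CPM per kb) lay below it. *Peg3* (0.234) and *Dlk1* (0.102 CPM per kb) were the lowest, *Peg3* at percentile 3.32. Since most members ranged over more than an order of magnitude between tumors, neighbours in this order overlapped: *H19* ran from 3.75 to 96.4 CPM per kb and *Mest* from 2.35 to 56.8 CPM per kb. No member was at 0 counts in any tumor, 9 had more than 3 counts in every tumor, and 6 reached 1 CPM in every tumor.

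**Figure D2:**
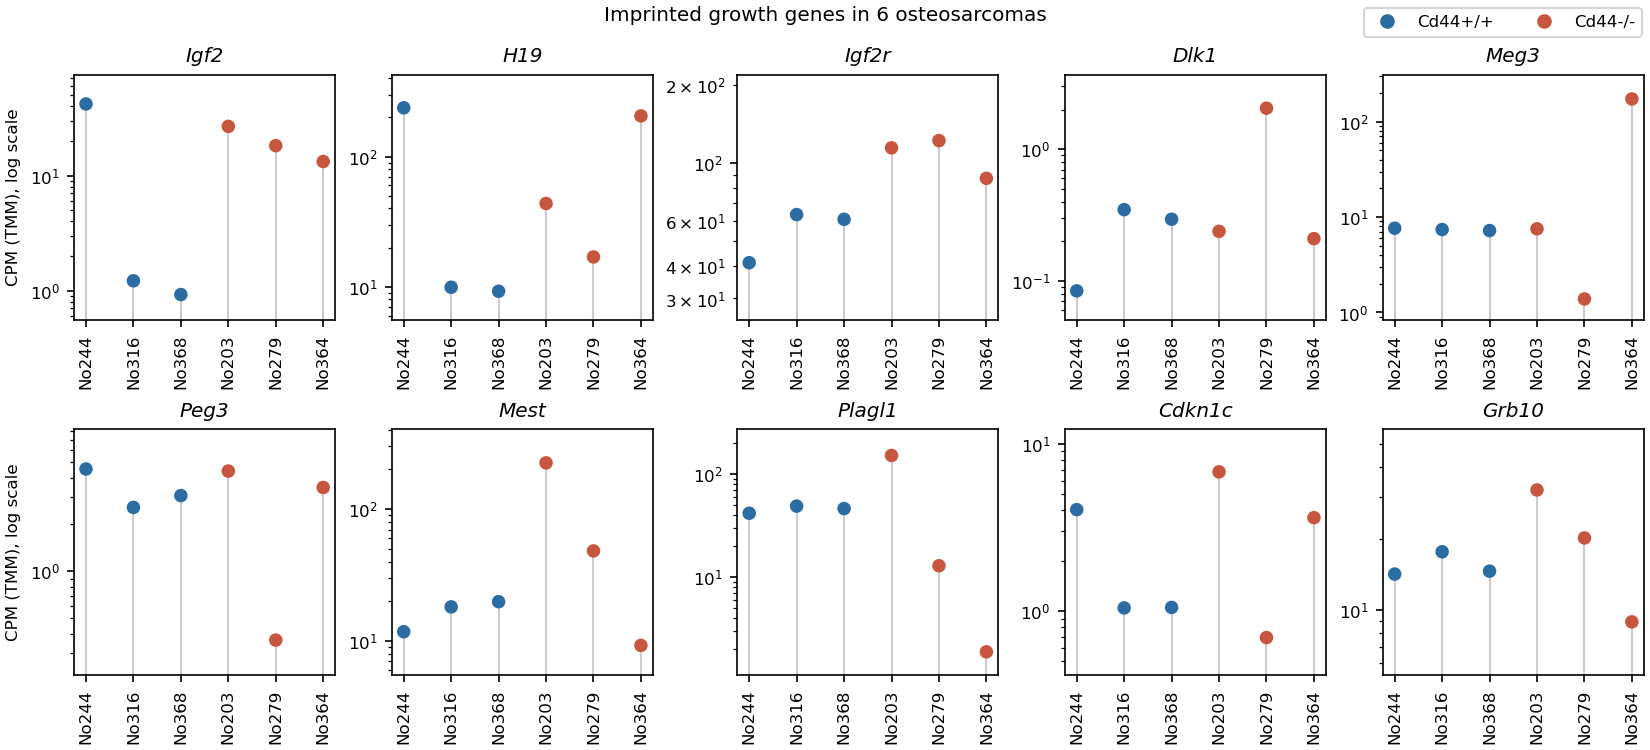
Level of each of the 10 members (vertical axis, TMM CPM on a log scale with its own range per panel) in the 6 tumors, blue for *Cd44*+/+ and red for *Cd44*-/-. The tumor with the highest point changes from gene to gene, and the red points all lie above the blue points for *Igf2r* only, where they run from 87.4 to 122 CPM against 41.3 to 63.3 CPM.

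Of the 9 members tested, edgeR called 0 different between the genotypes at an adjusted p under 0.05. The fit took the 6 libraries as deposited, so that No316 and No368 entered as separate samples. It called 0 of all 16839 genes (0.0%), with 0.452 as the smallest adjusted p. At an unadjusted p under 0.05, 2 members stood out, *Igf2r* and *Mest*, both higher in *Cd44*-/-, where 6.44% of all genes were higher and 10.7% differed in either direction. With No316 and No368 summed as 1 sample, 0 of the 9 passed that threshold (4.26% of all genes, 1.82% higher and 2.45% lower), with an unadjusted edgeR p of 0.0841 for *Igf2r* and 0.0965 for *Mest*. DESeq2 called 419 genes (2.33%), 218 higher and 201 lower, and 0 members, with *Meg3* left without an adjusted p. With the pair summed it called 146 genes (0.797%, 0.508% higher and 0.289% lower) and 0 members. limma-voom called 0 members and 0 genes (0.0%). The log2 fold change (*Cd44*-/- against *Cd44*+/+) was positive for 8 of the 9 members and for 55.1% of all genes, and its median was 0.41 for the members and 0.11 for all genes. With the pair summed it was positive for 6 of the 9 and for 55.5% of all genes. Without No364 the median of the same members was 0.76 and that of all genes 0.043. Without No244, *Cd44*+/+ was left with No316 and No368 alone, counted here as 1 sample, and the median of the members was 1.81. Without No203 it was 0.094.

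**Figure D3:**
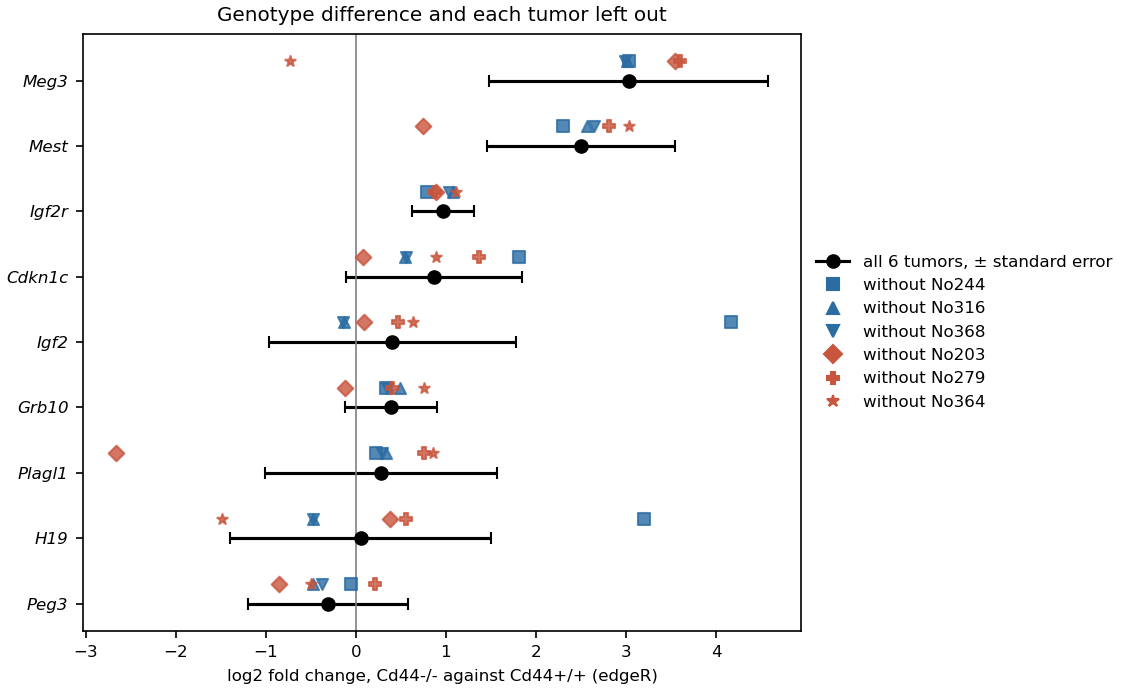
Log2 fold change of the 9 tested members, *Cd44*-/- against *Cd44*+/+ (horizontal axis, edgeR), with its standard error as a black bar and a colored symbol for the fit without each tumor, blue where a *Cd44*+/+ tumor and red where a *Cd44*-/- tumor was left out. Only *Igf2r*, *Mest* and *Cdkn1c* keep all symbols on the right of 0. *Igf2* moves to 4.17 without No244, *Meg3* to -0.73 without No364 and *Plagl1* to -2.66 without No203. The fit without No244 leaves only No316 and No368 in *Cd44*+/+, counted as 1 sample in the means.

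*Igf2* (ENSMUSG00000048583, chr7:142650766-142666816, minus strand) was near 1 CPM in 1 of the independent *Cd44*+/+ samples and above 10 CPM in the other tumors. It was counted at 41.9 (No244), 1.22 (No316) and 0.924 CPM (No368) in *Cd44*+/+ and at 26.8 (No203), 18.2 (No279) and 13.2 CPM (No364) in *Cd44*-/-. The genotypes overlapped, because No244 held the highest level of all. The lowest of the other 4 tumors lay 10.9-fold above the higher of No316 and No368. The means were 21.5 ± 28.9 CPM (SD, n = 2) in *Cd44*+/+ and 19.4 ± 6.84 CPM (SD, n = 3) in *Cd44*-/-, a ratio of 0.902. The edgeR fit, which counts No316 and No368 as 2 samples, gave a log2 fold change of 0.41 ± 1.37 (SE, adjusted p = 0.921), and with the pair summed it was -0.13. Without No244 the log2 fold change was 4.17 in edgeR, with only No316 and No368 left in *Cd44*+/+, counted here as 1 sample. No244 was also the tumor with the high skeletal muscle markers and the high mitochondrial share. In the annotation *Igf2* shares 3596 exon bases on its own strand with *Gm49394*, which was not analysed here, and overlaps *Igf2os* (0 to 2 counts) and *Mir483* (0 counts).

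*H19* (ENSMUSG00000000031, chr7:142575529-142578143, minus strand) had high levels in 1 tumor of each genotype. It stood at 237 (No244), 9.91 (No316) and 9.24 CPM (No368) in *Cd44*+/+ and at 43.6 (No203), 16.9 (No279) and 205 CPM (No364) in *Cd44*-/-. No244 and No364 were far above the rest, and No316 and No368 were again the lowest. The means were 123 ± 161 CPM (SD, n = 2) in *Cd44*+/+ and 88.7 ± 102 CPM (SD, n = 3) in *Cd44*-/-, a ratio of 0.719. With No316 and No368 as 2 samples, the log2 fold change was 0.054 ± 1.45 (SE, edgeR adjusted p = 0.990), and with the pair summed it was -0.47. It was -1.48 without No364 and 3.20 without No244, where only No316 and No368 were left in *Cd44*+/+. The 2 tumors with the most *H19* were the ones with the high muscle and the high hepatocyte markers.

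Reads on *Mir675*, whose hairpin is printed above, followed those on *H19*, in which it lies. They numbered 106 (No244), 14 (No316) and 13 (No368) in *Cd44*+/+ and 44 (No203), 34 (No279) and 225 (No364) in *Cd44*-/-, between 3.76% and 6.63% of the count of *H19*. The libraries were made from mRNA and hold the long transcript, so these reads do not measure the mature microRNA. *Gm27483* and *Gm27786*, small transcripts annotated on the opposite strand inside exons of *H19*, had 2 to 97 and 3 to 145 counts, with No244 and No364 highest for both. Whether reads on the opposite strand were counted apart is not given in the sources used here, so their reads and those of *H19* cannot be told apart.

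*Igf2* and *H19* did not stand in a fixed proportion. Per kilobase, the ratio of *H19* to *Igf2* was 13.1, 18.7 and 22.8 in No244, No316 and No368. It was 3.79, 2.17 and 36.0 in No203, No279 and No364. The lowest ratios belonged to the *Cd44*-/- tumors No203 and No279, and the highest to No364 of the same genotype. The difference of the mean log2 ratio was -1.41 (*Cd44*-/- minus *Cd44*+/+, exact permutation test over the 6 samples, two-sided, p = 0.4, 0.6 after Benjamini-Hochberg adjustment over 3 ratios), and the smallest p that 3 against 3 allows is 0.1. With No316 and No368 averaged as 1 sample, the difference was -1.31 (exact permutation test, two-sided, p = 0.5). With both as separate samples and No364 left out, it was -2.63.

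**Figure D4:**
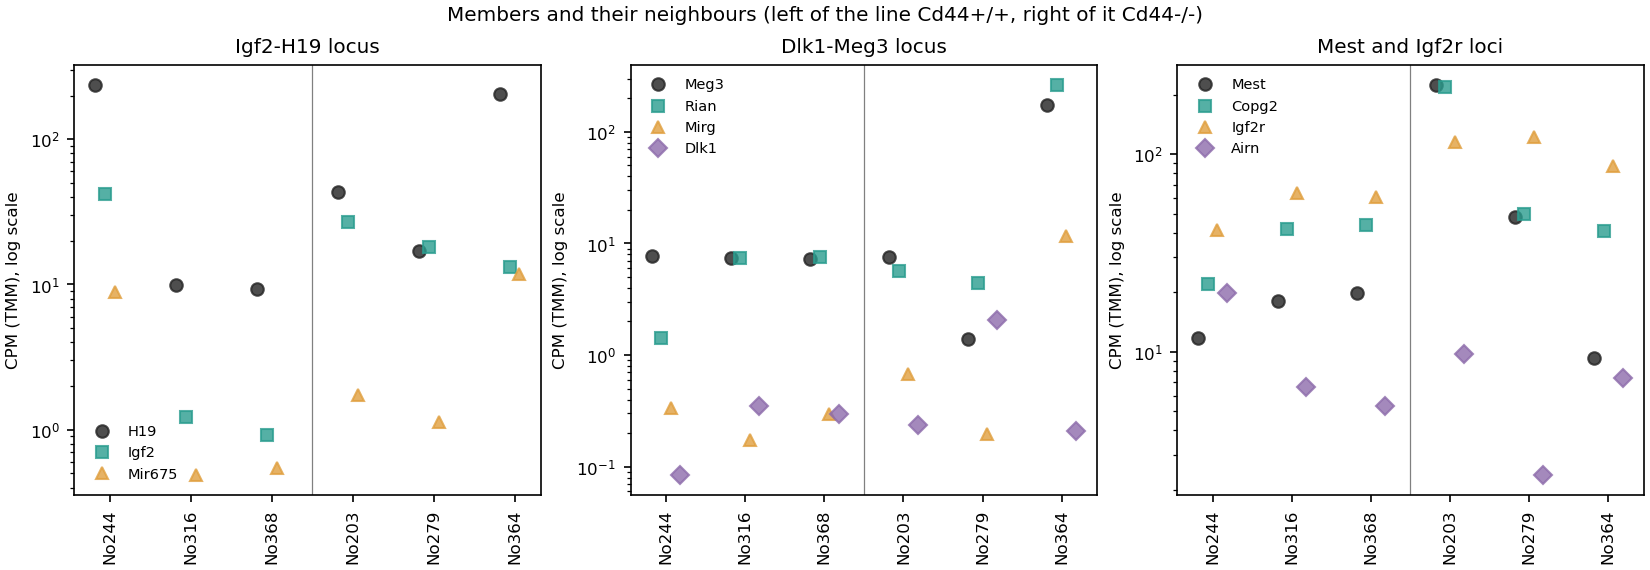
Level of members and their genomic neighbours (vertical axis, TMM CPM on a log scale, 1 symbol per gene and tumor, shifted sideways for visibility). *H19* peaks in No244 and No364 with *Mir675*, *Meg3* and *Rian* reach 173 and 264 CPM in No364, and *Mest* and *Copg2* both exceed 200 CPM in No203. *Mest* and *Copg2* share exon bases on opposite strands, where reads cannot be assigned without a known strand setting.

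*Igf2r* (ENSMUSG00000023830, chr17:12682406-12769664, minus strand) was the member with the clearest order between the genotypes. It stood at 41.3 (No244), 63.3 (No316) and 60.7 CPM (No368) in *Cd44*+/+ and at 115 (No203), 122 (No279) and 87.4 CPM (No364) in *Cd44*-/-. All 3 *Cd44*-/- tumors lay above all *Cd44*+/+ tumors, and the lowest *Cd44*-/- level was 1.38-fold the highest *Cd44*+/+ level. The means were 51.6 ± 14.7 CPM (SD, n = 2) and 108 ± 18.3 CPM (SD, n = 3), a ratio of 2.09. The log2 fold change was 0.97 ± 0.34 (SE), with an edgeR adjusted p of 0.452 and an unadjusted p of 0.0264, and did not pass the test. It stayed between 0.80 and 1.19 under all 20 settings tried, and the smallest adjusted p among them was 0.174, from DESeq2 without its Cook's distance filter. *Igf2r* was 1 of 10 members whose genotypes did not overlap, while this held for 19.1% of all genes tested (9.49% with *Cd44*-/- higher and 9.57% with *Cd44*-/- lower), so the share among the members was not above that of all genes. When counts were scaled by library size alone, *Igf2r* overlapped too, and 0 members were left.

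The noncoding RNA *Airn*, transcribed from the opposite strand of *Igf2r* on the paternal copy, silences that copy of *Igf2r*. *Airn* stood at 19.7 (No244), 6.67 (No316) and 5.29 CPM (No368) in *Cd44*+/+ and at 9.79 (No203), 2.38 (No279) and 7.38 CPM (No364) in *Cd44*-/-. It was highest in No244, where *Igf2r* was lowest, and lowest in No279, where *Igf2r* was highest. Across the remaining tumors both genes had the same order, from No203 over No364 and No316 down to No368. The log2 fold change of *Airn* was -0.69 (edgeR adjusted p = 0.731), and its annotated exons share 0 bases with those of *Igf2r*. *Airn* starts inside *Igf2r*, and whether unspliced reads of *Igf2r* were counted on it was not tested.

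The ligand and its clearance receptor took different proportions in each tumor. Per kilobase, the ratio of *Igf2* to *Igf2r* was 1.65, 0.0317 and 0.0253 in No244, No316 and No368. It was 0.380, 0.242 and 0.247 in No203, No279 and No364. The *Cd44*-/- tumors lay close together between the extremes of the *Cd44*+/+ tumors. The difference of the mean log2 ratio was 1.37 (exact permutation test, two-sided, p = 0.4, adjusted 0.6). With No316 and No368 averaged it was 0.39.

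*Grb10* (ENSMUSG00000020176, chr11:11930508-12038683, minus strand) encodes an adaptor that dampens signaling by the insulin and IGF1 receptors. It stood at 14.2 (No244), 17.6 (No316) and 14.6 CPM (No368) in *Cd44*+/+ and at 32.0 (No203), 20.1 (No279) and 8.95 CPM (No364) in *Cd44*-/-. No364 was the lowest and the other *Cd44*-/- tumors the highest, so the genotypes overlapped through No364. The log2 fold change was 0.40 ± 0.51 (SE, edgeR adjusted p = 0.778), and -0.12 without No203.

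*Meg3* (ENSMUSG00000021268, chr12:109541001-109571726, plus strand), a maternally transcribed noncoding RNA, was high in a single tumor. It stood at 7.65 (No244), 7.40 (No316) and 7.22 CPM (No368) in *Cd44*+/+ and at 7.53 (No203), 1.39 (No279) and 173 CPM (No364) in *Cd44*-/-. No364 was 22.7-fold above the next tumor, while 4 tumors of both genotypes lay between 7.22 and 7.65 CPM. Its log2 fold change was the largest of the members, 3.03 ± 1.55 (SE, edgeR adjusted p = 0.497), and became -0.73 without No364 (adjusted p = 0.785). The maternally transcribed RNAs that follow *Meg3* on chromosome 12 had the same peak. *Rian*, a host of small nucleolar RNAs, stood at 264 CPM in No364 and at 1.43 to 7.60 CPM elsewhere. *Mirg*, a microRNA host, stood at 11.6 CPM in No364 and at 0.174 to 0.674 CPM elsewhere. No364 is the tumor with the high hepatocyte markers. *Gm26906*, on the opposite strand with 1228 exon bases shared with *Meg3*, had 677 counts in No364 and 8 to 108 elsewhere, and its reads cannot be told apart from those of *Meg3* if strand was ignored in counting. Small transcripts inside *Meg3* were counted at 0 to 22 (*Gm27300*), 0 to 67 (*Mir1906-1*), 0 to 2 (*Mir770*) and 0 (*Gm27596*), each highest in No364 where any read fell.

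*Dlk1* (ENSMUSG00000040856, chr12:109452823-109463336, plus strand) is transcribed from the paternal copy at the same locus and encodes a transmembrane protein that restrains adipocyte differentiation. It did not pass the low-count filter. Its counts were 1 (No244), 10 (No316) and 7 (No368) in *Cd44*+/+ and 6 (No203), 62 (No279) and 4 (No364) in *Cd44*-/-. Only No279 exceeded 1 CPM, at 2.05 CPM, 5.89-fold the next tumor, and the level in No244 was below 3 counts. The ratio of *Meg3* to *Dlk1* per kilobase ran from 0.213 in No279, the one tumor with more *Dlk1* than *Meg3*, to 230.1 in No364. The difference of its mean log2 value between the genotypes was -0.32 (exact permutation test, two-sided, p = 1.0), 0.18 without No244 and 2.26 without No279.

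*Mest* (ENSMUSG00000051855, chr6:30723547-30748465, plus strand), a paternally transcribed gene for a member of the alpha/beta hydrolase family, was highest in No203. It stood at 11.8 (No244), 18.1 (No316) and 19.9 CPM (No368) in *Cd44*+/+ and at 224 (No203), 48.2 (No279) and 9.26 CPM (No364) in *Cd44*-/-. The genotypes overlapped through No364, which had the lowest level of the 6 tumors, while No203 and No279 lay above all *Cd44*+/+ tumors. The means were 15.4 ± 5.12 CPM (SD, n = 2) and 93.9 ± 114 CPM (SD, n = 3), with a log2 fold change of 2.50 ± 1.04 (SE, edgeR adjusted p = 0.460, unadjusted p = 0.0495). Without No364 it was 3.04 in edgeR (adjusted p = 0.545) and 3.02 in DESeq2, where *Mest* passed the test (adjusted p = 0.00843) in a fit with No316 and No368 as 2 samples that called 2.36% of all genes, 1.13% higher and 1.23% lower in *Cd44*-/-. Without No203 it was 0.75 (edgeR adjusted p = 0.629). Across its 20 settings the adjusted p of *Mest* lay between 0.00843 and 0.989.

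*Copg2*, which encodes a subunit of the vesicle coat, ends on the opposite strand of *Mest* and shares 912 exon bases with it. *Copg2* stood at 21.9 (No244), 41.7 (No316) and 43.6 CPM (No368) in *Cd44*+/+ and at 217 (No203), 49.8 (No279) and 41.0 CPM (No364) in *Cd44*-/-. It too was highest in No203. Its count was 4.42 times that of *Mest* in No364 and 0.970 times in No203. Without a known strand setting, reads in the shared exon bases cannot be assigned to either gene. The peak of *Copg2* in No203 and the balance of the neighbours are therefore uncertain. *Mir335*, *Gm27522* and *Gm27568* inside *Mest* had 0 counts, and *Gm44296* was not analysed here.

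*Plagl1* (ENSMUSG00000019817, chr10:13060504-13131694, plus strand), a paternally transcribed zinc finger transcription factor that acts on other imprinted genes, had an even level in *Cd44*+/+ and a wide one in *Cd44*-/-. It stood at 41.9 (No244), 49.2 (No316) and 46.6 CPM (No368) in *Cd44*+/+ and at 153 (No203), 12.9 (No279) and 1.88 CPM (No364) in *Cd44*-/-. The *Cd44*-/- tumors lay on both sides of the *Cd44*+/+ tumors, with an 81.2-fold distance between No203 and No364. The means were 44.9 ± 4.20 CPM (SD, n = 2) and 55.9 ± 84.2 CPM (SD, n = 3). The log2 fold change was 0.29 ± 1.29 (SE, edgeR adjusted p = 0.943), but -2.66 without No203 and -1.42 in limma-voom. Whether the spread itself differs between the genotypes was not tested. *Gm27741* on the opposite strand had 0 or 1 count.

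*Peg3* (ENSMUSG00000002265, chr7:6703892-6730431, minus strand), a paternally transcribed zinc finger gene, was low everywhere. It stood at 4.54 (No244), 2.57 (No316) and 3.06 CPM (No368) in *Cd44*+/+ and at 4.40 (No203), 0.363 (No279) and 3.45 CPM (No364) in *Cd44*-/-. Only No279 lay apart from the rest, below 1 CPM, while the other tumors lay between 2.57 and 4.54 CPM. The log2 fold change was -0.31 ± 0.89 (SE, edgeR adjusted p = 0.910) and 0.22 without No279. *Usp29* and *Zim1*, its neighbours in the imprinted cluster, had at most 0.0330 and 0.0793 CPM.

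*Cdkn1c* (ENSMUSG00000037664, chr7:143458339-143461050, minus strand), the maternally transcribed gene of the cyclin-dependent kinase inhibitor p57, stands for the growth-restraining side of imprinting. It was counted at 4.03 (No244), 1.04 (No316) and 1.05 CPM (No368) in *Cd44*+/+ and at 6.78 (No203), 0.693 (No279) and 3.61 CPM (No364) in *Cd44*-/-. High and low tumors occurred in both genotypes. The log2 fold change was 0.87 ± 0.98 (SE, edgeR adjusted p = 0.742) and 0.075 without No203. It was 1.81 without No244, where only No316 and No368 were left in *Cd44*+/+. *Gm44732*, on its opposite strand in the annotation, was not analysed here.

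Leaving out single tumors changed which members separated the genotypes. Without No244, 3 members did not overlap (*Igf2*, *H19* and *Igf2r*, 39.5% of all genes), and without No364 it was *Igf2r*, *Mest* and *Grb10* (28.7% of all genes). Without No203 *Plagl1* joined *Igf2r* (37.9% of all genes), with the lower level in *Cd44*-/-. *Igf2r* was left alone without No316, No368 or No279 (20.9%, 21.2% and 29.4% of all genes).

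Among 57 other imprinted genes in the count table, 37 passed the filter and edgeR called 0. At an unadjusted p under 0.05, 5 were higher (6.44% of all genes) and 2 lower in *Cd44*-/- (4.31%). The list had a median log2 fold change of 0.30, and of 0.090 without No364. DESeq2 called 1 higher and 1 lower, against 1.21% and 1.12% of all genes, and 0 with No316 and No368 summed (0.797% of all genes). The higher one was *Slc38a4*, an amino acid transporter gene transcribed from the paternal copy, at 9.24 (No244), 1.70 (No316) and 1.60 CPM (No368) in *Cd44*+/+ and at 85.0 (No203), 2.31 (No279) and 848 CPM (No364) in *Cd44*-/-. Its log2 fold change was 6.21 (DESeq2 adjusted p = 0.00620, 0.0757 with the pair summed), yet the genotypes overlapped through No279, and No364, with its hepatocyte markers, held the peak. The lower one was *Peg12*, at 0.840, 6.08 and 5.16 CPM against 0.674, 0.429 and 0.262 CPM, with a log2 fold change of -3.16 (DESeq2 adjusted p = 0.0300, 0.273 with the pair summed).

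The genotypes of 5 of the 37 tested genes in that list did not overlap, against 19.1% of all genes. *Dio3*, which encodes the deiodinase that inactivates thyroid hormone at the *Dlk1*-*Meg3* locus, ran from 0 to 0.210 CPM in *Cd44*+/+ and from 0.793 to 2.11 CPM in *Cd44*-/-. *Pon3*, a paraoxonase gene, ran from 12.3 to 24.6 CPM and from 34.3 to 86.7 CPM. *Atp10a* was also higher in *Cd44*-/-, at 16.7 to 26.0 CPM against 9.83 to 11.8 CPM. *Peg12* and *Asb4* were lower, *Asb4* at 0.198 to 4.56 CPM in *Cd44*-/- against 8.24 to 24.5 CPM. None of these was called by edgeR, in which 0.452 was the smallest adjusted p over all genes. The most abundant genes of the list were *Gnas* (385 to 1197 CPM), *Dcn* (125 to 920 CPM) and *Cd81* (114 to 433 CPM), and each overlapped between the genotypes.

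In the wider IGF pathway, 21 of 24 genes passed the filter and edgeR called 0, with 5 higher (6.44% of all genes) and 0 lower at an unadjusted p under 0.05. DESeq2 called 4, all higher in *Cd44*-/-, where 1.21% of all genes were called higher. With No316 and No368 summed it called 2 of them, *Igfbp2* and *Igf2bp1*, with 0.508% of all genes called higher. The median log2 fold change was 1.04, and 0.48 without No364, the tumor in which 10 of the genes were highest. *Igfbp2*, which encodes a protein that binds IGFs outside the cell, stood at 1.34 (No244), 1.25 (No316) and 0.966 CPM (No368) in *Cd44*+/+ and at 5.75 (No203), 74.0 (No279) and 209 CPM (No364) in *Cd44*-/-. Its genotypes did not overlap (log2 fold change 6.32, DESeq2 adjusted p = 1.4e-05, 0.000828 with the pair summed; edgeR adjusted p = 0.452). *Igfbp4*, another binding protein gene, ran from 72.9 to 74.5 CPM in *Cd44*+/+ and stood at 202, 441 and 1137 CPM in *Cd44*-/- (log2 fold change 2.98, DESeq2 adjusted p = 0.00608, 0.101 with the pair summed).

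*Igfbp6*, whose protein prefers IGF2 over IGF1, was called by DESeq2 (adjusted p = 0.00919, 0.0837 with the pair summed) on the strength of 273 CPM in No279 and 35.9 CPM in No364. No203 at 2.18 CPM lay below the *Cd44*+/+ tumors (2.71 to 3.28 CPM). *Igf2bp1*, a binder of *Igf2* mRNA, did not pass the filter of edgeR and was called by DESeq2 (adjusted p = 0.00308, 0.0292 with the pair summed) with 302 and 138 counts in No203 and No279, 4 counts in No364 and 0 to 3 counts in *Cd44*+/+. *Shc1*, a receptor adaptor, was lower in all *Cd44*-/- tumors at 68.8 to 97.6 CPM against 121 to 131 CPM (log2 fold change -0.67, edgeR adjusted p = 0.489). The most abundant of the list were *Igfbp3* at 115 to 1281 CPM, *Igfbp1*, which stood at 2208 CPM in No364 and at no more than 1.43 CPM elsewhere, and *Igfbp4*. *Igf1*, the other IGF ligand, had 570.1 CPM in No364 and 10.4 to 19.3 CPM elsewhere.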

How the data were processed

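mRNA of 6 primary osteosarcomas was sequenced. The file the authors deposited holds, for each tumor, the raw count of reads on every Ensembl gene, not normalized. By their methods, libraries came from the TruSeq stranded kit, and single-end reads were extracted with bcl2fastq 1.8.4. They were aligned with HISAT2 2.0.2 to GRCm38, and the counter was featureCounts of Subread 2.0.0. The strand setting is not given in the sources used here, so counts of overlapping genes are uncertain. Genotypes were taken from the sample labels, and 0 columns of samples were left unused. No source says whether mice were littermates or processed together. The p-values of the fits set the genotype difference against the spread between these libraries within a genotype. Fits across all genes took No316 and No368 as 2 samples unless stated, and as these differ by little more than counting noise, the spread within *Cd44*+/+ may be too small there.

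Symbols, exon lengths and coordinates were those of GENCODE M21 (GRCm38), and promoter and microRNA sequences those of RefSeq GRCm38.p6. The genotype comparison used the quasi-likelihood test of edgeR 4.0.16 (R 4.3.3) with TMM factors, after filterByExpr, and p-values were adjusted over all 16839 genes by Benjamini-Hochberg, with a threshold of 0.05. An SE was obtained by dividing a log2 fold change by the root of F. The common dispersion was 0.501. Ratios were formed from counts plus 0.5 per kilobase of exon. Pairs of tumors were set against binomial noise over genes with 20 or more counts in the pair. Alternatives were DESeq2 1.42.0 with and without its Cook's distance filter, limma-voom (limma 3.58.1), DESeq2 size factors, library size alone, mitochondrial genes left out, other low-count filters, a hepatocyte marker score as a covariate, No316 and No368 summed, and each tumor left out. Scripts were tested on simulated data. Counts of 3 limit detection, and intervals of pairs cover counting error only.

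The members, the lists (other imprinted genes, IGF pathway, regulators of imprinting and 10 lists of cell type markers) and the tests were chosen with earlier results of these data known. All 10 members are named. Of each other list, the genes called by edgeR or by DESeq2, the 3 with the highest mean CPM and, among genes whose genotypes do not overlap, the 2 largest rises and the 2 largest falls are named, as are, for *Igf2* and *H19*, the 3 genes nearest in pattern and, beside each member, genes that overlap it. Cell type markers are given mostly as summed CPM, and of their most abundant genes few are named. *Rian*, *Mirg*, *Usp29*, *Zim1*, *Igf1*, *Atp10a*, *Gpc3* and some markers were named after their values were seen. *Kcnq1ot1*, *Zfp264*, *Zim3*, *Snrpn*, *Snurf* and *Peg13* were not analysed here.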

Additional observations from a re-analysis of the deposited data

How the results depend on the processing

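No paired analysis was possible because the numbers in the labels are not shared between the genotypes. *Igf2r*, *Mest* and *Cdkn1c* were the members that kept the sign of their log2 fold change under all 20 settings. The others reversed in 1 to 8 settings each. These settings were not separate checks. Leaving out No244 left *Cd44*+/+ with No316 and No368 alone, counted as 1 sample in every mean. Leaving out No316 or No368 nearly repeated the fit with the pair summed (*Igf2* at -0.13, -0.14 and -0.13). The hepatocyte score mainly set No364 (12.3) apart from the other tumors (at most 2.24). With each tumor left out in edgeR, the log2 fold change ran from -0.14 to 4.17 for *Igf2*, from -1.48 to 3.20 for *H19*, from -0.73 to 3.60 for *Meg3*, from -2.66 to 0.86 for *Plagl1*, from -0.12 to 0.76 for *Grb10* and from -0.85 to 0.22 for *Peg3*. Other reversed values of *Igf2* were -0.13 with No316 and No368 summed (-0.16 in DESeq2). Those of *H19* were -0.47 with the pair summed (-0.50 in DESeq2), -1.48 in DESeq2 without No364, -2.02 with the pair summed and No364 left out, and -1.61 with the hepatocyte score as a covariate. Those of *Meg3* were -0.75 in DESeq2 without No364, -0.75 with the pair also summed in edgeR, and -1.11 with the hepatocyte score. *Plagl1* reversed to -1.42 in limma-voom. The cause was not tested. DESeq2 with No316 and No368 summed or without No364 was chosen after seeing the data.

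edgeR called 0 genes under each of its settings. DESeq2 called 419 genes, 1195 without the Cook's distance filter, 146 with the pair summed and 432 without No364, where 1 member, *Mest*, was called (log2 fold change 3.02). With its defaults DESeq2 called 2 of the other imprinted genes, 4 of the IGF pathway, 2 osteoblast, 1 epithelial and 1 fetal hepatocyte marker. Of all genes, this fit called 1.21% higher and 1.12% lower. When the Cook's distance filter was off and 1195 of all genes were called, it called 4, 8, 2, 3 and 2 of these. It also called 15 hepatocyte, 1 chondrocyte and 1 skeletal muscle marker. With the pair summed it called 2 genes of the IGF pathway, 1 fetal hepatocyte and 1 chondrocyte marker, and 0 in the other lists. Members whose genotypes do not overlap numbered 0 with library size alone and 1 to 3 with each tumor left out. The median log2 fold change of the members ran from 0.094 to 1.81 with each tumor left out, and the log2 ratio of *Meg3* to *Dlk1* from -2.77 to 2.26, reversed without No244 (0.18) and without No279 (2.26). At 3 counts as the floor, *Dlk1* in No244 could not be told from 0.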

Other observations

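Genes that set and keep imprints were counted as well. Of 16 regulators, 13 passed the filter, and edgeR called 0 (0.0% of all genes) and DESeq2 0 (2.33% of all genes). At an unadjusted edgeR p under 0.05, 1 (*Trim28*) was higher in *Cd44*-/-, as were 6.44% of all genes. The median log2 fold change of the list was 0.12 (0.26 without No364). *Trim28*, a corepressor that protects imprints in the early embryo, stood at 49.9 (No244), 63.3 (No316) and 65.9 CPM (No368) in *Cd44*+/+ and at 123 (No203), 109 (No279) and 89.96 CPM (No364) in *Cd44*-/-. The genotypes did not overlap, with a log2 fold change of 0.85 (edgeR adjusted p = 0.452). Of the 13 tested regulators, 1 was higher and 2 were lower in *Cd44*-/- without overlap, against 9.49% and 9.57% of all genes. *Dnmt3b*, a de novo DNA methyltransferase, ran from 9.18 to 10.4 CPM in *Cd44*+/+ and from 2.48 to 8.64 CPM in *Cd44*-/- without overlap (log2 fold change -0.93, edgeR adjusted p = 0.550). *Dppa3*, which guards maternal imprints in the zygote, had 11 to 17 counts in *Cd44*+/+ and 3 to 14 counts in *Cd44*-/-. *Ctcf*, the factor that insulates *Igf2* from the shared enhancers on the maternal copy, stood at 40.4 to 62.0 CPM, and *Dnmt3a* at 21.6 to 78.6 CPM.

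The genes nearest to *Igf2* in pattern were not its neighbours on the chromosome. Likeness was the root mean square difference of centred log2 CPM over the 5 independent samples, among 15653 genes with a mean of at least 1 CPM. *Slc18a1* (0.316), *Cryzl2* (0.423) and *P2rx5* (0.429) were nearest to *Igf2*, and *H19* had rank 1024 (1.503). Nearest to *H19* were *Gm27483* (0.179) and *Mir675* (0.345), both inside it, and *Mtfp1* (0.360), a gene for a mitochondrial protein. *Mtfp1* stood at 9.83 CPM in No244 and 12.4 CPM in No364 and between 0.348 and 3.29 CPM in the other tumors. Of the members, *Cdkn1c* came nearest to *H19* (rank 681). Over 5 samples such nearness is a description of shared highs and lows.

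The remaining marker lists varied by tumor as well, and edgeR called 0 genes in each of the 10 marker lists. DESeq2 called *Bglap* and *Bglap2* lower (1.12% of all genes) and *Epcam* and *Afp* higher in *Cd44*-/- (1.21% of all genes). With No316 and No368 summed it called 0 osteoblast, 0 epithelial and 1 fetal hepatocyte marker (0.797% of all genes). The genotypes did not overlap either for *Spp1*, *Dmp1* and *Kdr*, lower in *Cd44*-/- (9.57% of all genes). Nor did they for *Acan*, *Krt8*, *Krt18*, *S100a8* and *S100a9*, higher in *Cd44*-/- (9.49% of all genes). By list, 4 of 10 tested osteoblast and 1 of 4 endothelial markers were lower without overlap. Higher without overlap were 1 of 5 chondrocyte, 3 of 4 epithelial and 2 of 5 erythroid and marrow markers. The median log2 fold change of the erythroid and marrow list was -0.95. Macrophage and osteoclast markers summed to between 623 CPM (No364) and 9082 CPM (No203), with 9018 CPM in No244 and 891 and 890.3 CPM in No316 and No368. Chondrocyte markers summed to 175 CPM in No279, led by *Acan*, and to 12.0 to 40.6 CPM elsewhere. Epithelial markers summed to 1969 CPM in No364 and 36.3 CPM in No279, against 2.61 to 5.35 CPM elsewhere. Fetal hepatocyte markers reached 73.3 CPM in No364, from *Gpc3* and *Afp*, and at most 6.40 CPM elsewhere. Endothelial markers were lowest in No364 at 69.0 CPM (170.4 to 328 CPM elsewhere), adipocyte markers lay between 48.6 and 145 CPM, and erythroid and marrow markers between 151 and 5348 CPM, highest in No244.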
